A study of Mus musculus with 56 samples.

Results

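The genes described here are 10 genes of hepatic fatty acid and triglyceride synthesis: Srebf1, Acly, Acaca, Acacb, Fasn, Scd1, Elovl6, Dgat2, Me1 and Pnpla3. They were taken by their symbols from an RNA-seq table of 21888 gene symbols in 14 mouse livers, with the value of every mouse. The set was selected on earlier results of the same livers, in which Scd1 was among the largest falls at day 45. The values that chose it are therefore those of day 45 against day 0, and for these 10 genes that contrast is given below as a description with no test. Tests at day 45 are given for other genes only. All levels are in FPKM, the fragments assigned to a gene after scaling for transcript length and for the size of the library. Of the 10 genes, 9 had a mean of at least 1 FPKM over the 14 livers and were tested, and Pnpla3 was not.

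The livers come from mice of the 129Sv/J background. All Cre groups and their controls carry LoxP sites around the miR-122 hairpin. Day 0 is 3 uninjected floxed mice (replicates A, B and C). Days 21 and 45 are 3 floxed mice each, and days 100 and 200 are 1 mouse each, counted from injection of an adeno-associated virus (rAAV8) that makes Cre from the Ef1a promoter, which is active in many cell types. A further 3 mice carry a germline miR-122 knockout, a separate line compared here with the same floxed controls, so the allele and the line cannot be told apart. Nor can excision be told apart from virus and Cre, since the controls were uninjected. The floxed mice given Cre were adults. Exact age, sex, feeding and time of day at harvest are not given for these livers. Each library is 1 mouse, and p-values measure the spread between mice.

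Hepatocytes make fatty acids from citrate. Acly splits citrate into acetyl-CoA, the acetyl-CoA carboxylases Acaca and Acacb make malonyl-CoA, Fasn builds palmitate with NADPH that Me1 helps to supply, Elovl6 lengthens palmitate, Scd1 puts in the first double bond, and Dgat2 joins the last fatty acid to a triglyceride. Srebf1 encodes SREBP-1, the transcription factor that insulin and feeding raise to switch the pathway on, and Pnpla3 encodes a lipid droplet protein that is itself a target of SREBP-1c. miR-122 is the most abundant microRNA of hepatocytes and is known to keep hepatic lipid synthesis up.

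The loss of miR-122 was checked first. It made up 73.3, 59.2 and 66.7% of listed microRNA reads in the day 0 small RNA libraries A, B and C. The labels do not say that these libraries come from the same mice as the RNA-seq libraries of the same name. The share of miR-122 was 12.5, 13.2 and 8.22% at day 21 and 0.908, 0.383 and 1.23% at day 45. The day 100 small RNA library held 4.46% and that of day 200 held 19.1%. The knockout has no small RNA library used here. The 6 published miR-122 targets looked up in the RNA-seq table all lay above every day 0 mouse in all 3 knockout mice, and the same held at day 21, at day 45 and at the late days. Of all 11354 tested genes, 21.1% lay above every day 0 mouse in the knockout, 25.2% at day 21, 40.5% at day 45 and 52.9% at the late days.

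Some libraries stand apart from the rest. Transcripts of Y-linked genes were found in 4 livers (day 0 B, day 21 C, day 45 C and knockout C) and Xist in the other 10, so each group of 3 holds 1 mouse of this kind and days 100 and 200 hold none. Dbp, a clock output gene, was at 5.99 FPKM in day 0 B and 2.60 in day 0 C, against 38.5 in day 0 A and 23.6 to 82.6 in the 11 other livers. Knockout A and B had low values of long transcripts: transcripts of at least 6000 bases against those under 2000 gave a log2 index of -0.97 and -0.60, against 0.19 in knockout C and -0.32 to 0.39 in the other livers. The steps between low FPKM values put the depth roughly at 24500000 to 33900000 fragments in the knockout and 37200000 to 58900000 elsewhere. Of 10 hepatocyte markers, Alb is listed at 0 in every library, which is a failed estimate in liver, and Serpina1a in 10 of the 14. The other 8 summed to 30671 to 34134 FPKM at day 0, 28422 to 30289 at day 21, 23103 to 29099 at day 45, 17781 and 26772 at days 100 and 200 and 28186 to 32914 in the knockout. Of these 8, all mice lay below every day 0 mouse for 1 at day 21, 2 at day 45 (Apoa1 and Fgb), 2 at the late days and 0 in the knockout, beside 13.1%, 9.37%, 11.6% and 13.3% of all genes. Within the knockout Apob and Cps1 were lowest in A and B, with Apob at 98.2 and 117 FPKM there, 488 in knockout C and 481 to 773 at day 0. The 8 adipocyte markers summed to 19.9 to 26.4 FPKM at day 0, 16.8 to 22.2 at day 21, 26.1 to 42.6 at day 45, 29.8 and 27.4 at days 100 and 200 and 11.2 to 21.2 in the knockout, most of it Fabp4 and Pparg. Adipoq, Lep and Retn stayed at or under 0.084 FPKM, and Plin1 is listed at 0 in every library, which in this unit does not show that it is absent. The part of these markers in the results below was not tested.

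The genes lie on 7 chromosomes of the mm9 build. Srebf1 (chr11:60012591-60034106), Acaca (chr11:84008940-84215153), Acly (chr11:100337666-100389314) and Fasn (chr11:120667272-120685861) share chromosome 11. Acacb is at chr5:114615527-114700767, Scd1 at chr19:44468940-44482199, Elovl6 at chr3:129235304-129341411, Dgat2 at chr7:106302173-106331223, Me1 at chr9:86474970-86589947 and Pnpla3 at chr15:83998246-84019951. Promoters of 8 of the 10 were found by symbol in a RefSeq table, with 11 start sites in all. Scd1 and Dgat2 had no entry. The 250 bases before the start are shown for 3 genes whose levels fell in the knockout, Acly, Acacb and Fasn. Each sequence was read from the RefSeq table (GRCm38.p6) and placed by exact match in mm9, at chr11:100389315-100389564 on the minus strand, chr5:114615277-114615526 on the plus strand and chr11:120685862-120686111 on the minus strand. Capitals mark CCAAT and GGGCGG (the CCAAT box and the GC box) on either strand, and neither motif overlaps the other.
Acly: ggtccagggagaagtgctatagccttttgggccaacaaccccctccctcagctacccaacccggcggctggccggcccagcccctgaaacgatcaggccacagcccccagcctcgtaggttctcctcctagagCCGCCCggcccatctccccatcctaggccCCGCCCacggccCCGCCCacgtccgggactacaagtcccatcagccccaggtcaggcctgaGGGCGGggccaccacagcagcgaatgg
Acacb: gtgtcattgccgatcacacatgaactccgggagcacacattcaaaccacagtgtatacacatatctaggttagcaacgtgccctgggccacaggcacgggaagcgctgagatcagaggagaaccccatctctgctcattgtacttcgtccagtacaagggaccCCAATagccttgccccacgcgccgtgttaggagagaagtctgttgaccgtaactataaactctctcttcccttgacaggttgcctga
Fasn: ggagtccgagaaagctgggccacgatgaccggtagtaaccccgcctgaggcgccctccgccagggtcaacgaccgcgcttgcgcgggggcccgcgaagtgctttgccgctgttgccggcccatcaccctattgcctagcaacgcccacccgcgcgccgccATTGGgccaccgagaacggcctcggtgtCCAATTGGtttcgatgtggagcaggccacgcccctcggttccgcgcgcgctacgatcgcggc
The Acly promoter held 4 GC boxes, at -117, -88, -76 and -27 from the start. The Acacb promoter held 1 CCAAT box at -87, and that of Fasn 3, at -90, -62 and -59, the last pair sharing bases. Over the 8 genes, 5 had a CCAAT box and 4 a GC box before at least 1 start, beside 33.8% and 32.7% of 32851 RefSeq promoters of the same length. The units differ, since a gene with several starts has more chances of a hit than a single promoter. Srebf1 has 3 starts here and Me1 has 2. The E-box CACGTG and the sterol regulatory element TCACNCCAC, where N is any base, were in none of the 8, against 6.02% and 1.05% of all promoters, and other spellings of these elements were not searched.

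In the uninjected mice Scd1 was by far the most abundant of the 10 transcripts, with a mean of 1501 ± 915 FPKM (SD, n = 3). Dgat2 followed at 296 ± 41.7, Acly at 86.3 ± 3.41, Fasn at 64.5 ± 11.2, Srebf1 at 48.5 ± 16.9, Me1 at 31.2 ± 8.97, Elovl6 at 28.5 ± 0.885, Acacb at 10.6 ± 1.52, Acaca at 8.53 ± 1.19 and Pnpla3 at 0.797 ± 0.510 FPKM. Neighbours in this order whose mice overlapped were Fasn and Srebf1, Srebf1 and Me1, Me1 and Elovl6, and Acacb and Acaca. The order therefore separates Scd1, Dgat2 and Acly from each other and from the rest. It also separates Acacb and Acaca from the genes above them and from Pnpla3 below.

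**Figure D1:**
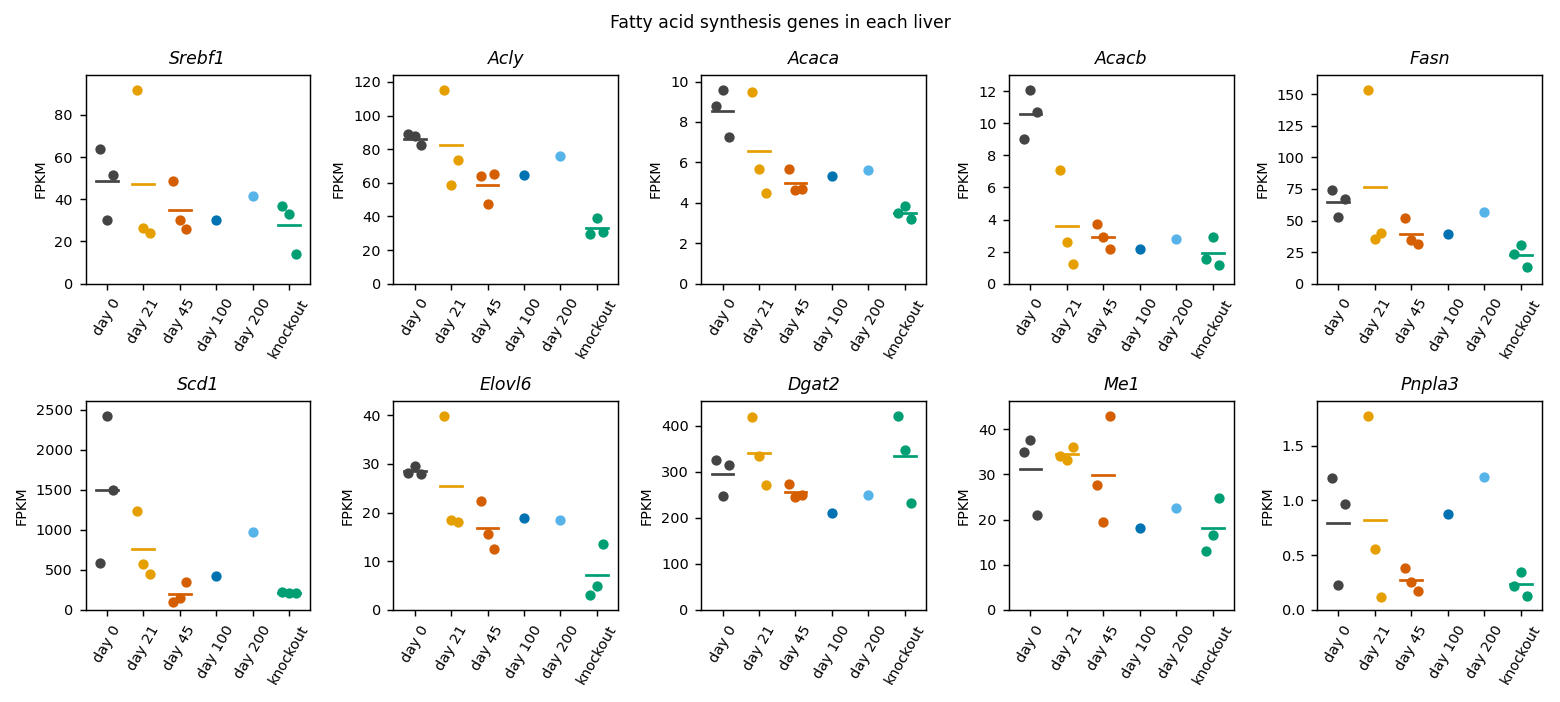
FPKM of each gene in each of the 14 livers, with points for mice and a bar for the mean of each group of 3. Scd1, Acacb, Acaca and Elovl6 lie lower in every day 45 and knockout mouse than in any day 0 mouse, while Dgat2 and Me1 overlap with day 0.

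Scd1 was the gene with the widest spread. It stood at 589, 2419 and 1494 FPKM in day 0 mice A, B and C, at 1238, 580 and 454 at day 21, at 98.2, 144 and 353 at day 45, at 419 at day 100, at 975 at day 200 and at 219, 216 and 213 in the knockout. Every day 45 and knockout mouse lay below every day 0 mouse, while days 21 and 200 overlapped with the range of day 0. The mean was 7.57-fold lower at day 45 and 6.95-fold lower in the knockout than at day 0. The 3 knockout mice had an SD of 3.04 FPKM, the smallest of the groups.

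The day 45 fall that chose the gene was a log2 difference of -2.91, the fifth largest fall of 11354 genes, between Slco1a1 (-3.06) and Sult2a2 (-2.86). Day 0 A, the only day 0 mouse with Dbp in the range of the other groups, had the lowest Scd1 of its group, and against this mouse alone the day 45 difference was -1.78. Without the 4 livers with Y-linked transcripts, which include the highest day 0 mouse, it was -2.97.

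Against day 0, on the log2(FPKM + 1) scale, Scd1 was lower in the germline knockout by a log2 difference of -2.57 (SE 0.571, adjusted p = 0.00657, limma with Benjamini-Hochberg adjustment over 11354 genes). This comparison shares the day 0 mice with the one that chose Scd1 and is not independent of it. The call held when any 1 mouse of either group was left out, with log2 differences from -3.13 to -2.11 and adjusted p up to 0.0316. With day 0 A as the only control the difference was -1.44 and was not called (limma adjusted p = 0.235), nor was any other of the 9 tested genes, with 1 control mouse that is assumed to vary like the other groups. Of the other genes called in the knockout, Acly (-1.41), Acaca (-1.12), Acacb (-1.84), Fasn (-1.76) and Elovl6 (-2.04) still differed from that mouse by about as much as from all 3. At day 21 the difference was -0.90 (SE 0.571, limma adjusted p = 0.405) and at days 100 and 200 together -1.01 (SE 0.638, limma adjusted p = 0.262). Neither passed the threshold of 0.05.

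The transcript of Scd2, a second stearoyl-CoA desaturase that is low in adult liver, went the opposite way. It stood at 1.96, 1.23 and 1.91 FPKM at day 0, 5.13, 2.70 and 2.95 at day 21, 5.73, 11.5 and 6.63 at day 45, 34.1 at day 100, 20.1 at day 200 and 5.73, 6.68 and 3.96 in the knockout. Every mouse after Cre and every knockout mouse lay above all day 0 mice. Scd2 rose at day 45 (log2 difference 1.69, SE 0.287, limma adjusted p = 0.00157), at days 100 and 200 (3.35, SE 0.321, limma adjusted p = 5.85e-05) and in the knockout (1.25, SE 0.287, limma adjusted p = 0.00789), and did not pass at day 21 (0.74, SE 0.287, limma adjusted p = 0.149). There were 300 to 1969 Scd1 FPKM for each Scd2 FPKM at day 0, 154 to 241 at day 21, 12.5 to 53.2 at day 45, 12.3 and 48.5 at days 100 and 200 and 32.3 to 53.8 in the knockout. Of the windows of Scd1 transcripts as long as 1 read, 0.992% also occur in Scd2 and 1.79% in the desaturase gene Scd3. Scd3 stood at 0.005, 0.066 and 0.035 FPKM in day 0 mice A, B and C. Whether fragments from the shared stretches make up part of the low Scd2 values was not tested. Markers of other liver cells were also higher in the livers after Cre. Of 8 macrophage and 8 stellate cell markers, 7 and 7 lay above every day 0 mouse at day 21, 8 and 8 at day 45, 6 and 8 at the late days and 2 and 4 in the knockout, beside 25.2%, 40.5%, 52.9% and 21.1% of all genes. In knockout C the macrophage markers summed to 299.6 FPKM, within the 225 to 404 of day 0. The 5 cholangiocyte markers summed to 46.1 to 59.2 FPKM at day 0, 137 to 203 at day 21, 405 to 1330 at day 45, 2920 and 1920 at days 100 and 200 and 551 to 794 in the knockout. Most of that sum was Spp1, at 129 to 195 FPKM at day 21 and 2866 at day 100. At day 21, 2 of the 5 lay above every day 0 mouse, and all 5 did so at day 45, at the late days and in the knockout. Their part in the Scd2 rise was not tested, and in bulk liver fewer cells of a type and less RNA per cell cannot be told apart.

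**Figure D2:**
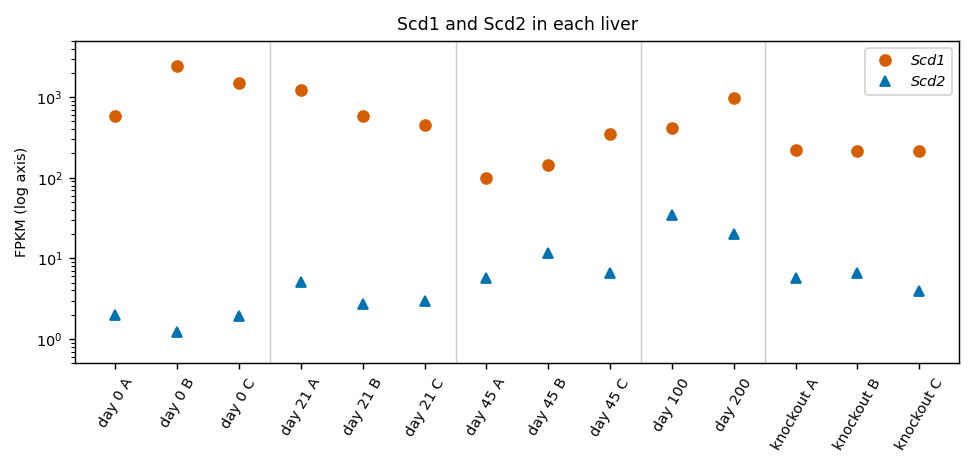
Scd1 and Scd2 in each liver, in FPKM on a log axis, 1 point per gene and mouse, with grey vertical lines that only part the groups. Scd1 lies between 589 and 2419 FPKM at day 0 and between 98.2 and 353 at day 45, while Scd2 lies between 20.1 and 34.1 FPKM in the late livers.

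The enzymes that feed Fasn came next. Acly stood at 88.8, 87.6 and 82.4 FPKM at day 0, 115, 58.5 and 73.3 at day 21, 64.1, 47.3 and 65.1 at day 45, 64.9 and 75.6 at days 100 and 200 and 29.7, 38.8 and 30.4 in the knockout. The knockout mice lay 2.62-fold below day 0 in the mean and below every other liver. Acly fell in the knockout (log2 difference -1.37, SE 0.226, limma adjusted p = 0.00140) and kept this call without any 1 mouse, and the differences at day 21 (-0.12) and at the late days (-0.30) were not called (limma adjusted p = 0.828 and 0.414).

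Acaca, the cytosolic carboxylase, stood at 8.77, 9.58 and 7.23 FPKM at day 0 and at 5.68, 4.63 and 4.68 at day 45. The knockout mice had 3.50, 3.86 and 3.20 FPKM, less than any other liver. Its difference was -1.07 in the knockout (SE 0.205, limma adjusted p = 0.00320), -0.55 at the late days (limma adjusted p = 0.0885) and -0.38 at day 21 (limma adjusted p = 0.319). Day 21 A, at 9.51 FPKM, lay above 2 of the day 0 mice, and without it the day 21 difference was -0.64 and was called (limma adjusted p = 0.0453).

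Acacb, the carboxylase at the mitochondrial membrane, whose malonyl-CoA restrains fatty acid oxidation, was low in every group after day 0. It stood at 9.05, 12.1 and 10.7 FPKM at day 0, 7.08, 2.58 and 1.21 at day 21, 3.71, 2.88 and 2.15 at day 45, 2.16 and 2.77 at days 100 and 200 and 1.55, 2.94 and 1.20 in the knockout. No mouse of any later group reached the lowest day 0 mouse, and the means were 2.93-fold (day 21), 3.64-fold (day 45), 4.30-fold (late) and 5.59-fold (knockout) lower. It fell at day 21 (log2 difference -1.53, SE 0.377, limma adjusted p = 0.0292), at the late days (-1.74, SE 0.421, limma adjusted p = 0.00760) and in the knockout (-2.04, SE 0.377, limma adjusted p = 0.00259). The day 21 call was lost when any of the 5 mice other than day 21 A was left out (limma adjusted p from 0.0697 to 0.115), and the late call without the day 100 mouse (limma adjusted p = 0.0770). The day 21 log2 difference was -2.04 without day 21 A and -1.10 without day 21 C. The knockout call held without any 1 mouse. No window of Acaca transcripts as long as 1 read occurs in Acacb.

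Fasn, the fatty acid synthase, stood at 74.4, 52.4 and 66.7 FPKM at day 0, 153, 35.7 and 40.4 at day 21, 52.2, 34.3 and 31.0 at day 45, 39.5 and 56.6 at days 100 and 200 and 23.2, 30.5 and 13.4 in the knockout. Day 21 A was the highest liver of all, more than 3 times the other day 21 mice. The knockout mice lay below every other liver. Fasn fell in the knockout (log2 difference -1.54, SE 0.468, limma adjusted p = 0.0253), but not past the threshold without day 0 A (0.0697), day 0 C (0.0652) or knockout A (0.0621), all limma adjusted p. Nor did it pass without the 4 livers with Y-linked transcripts (-1.37, limma adjusted p = 0.0518). The differences of -0.07 at day 21 and -0.42 at the late days were not called (limma adjusted p = 0.966 and 0.583). Without day 21 A the day 21 difference of Fasn was -0.74, still not called.

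Elovl6 stood at 28.1, 29.5 and 27.9 FPKM at day 0, 39.8, 18.4 and 18.1 at day 21, 22.3, 15.6 and 12.5 at day 45, 18.8 and 18.4 at days 100 and 200 and 3.05, 4.998 and 13.5 in the knockout. It fell in the knockout (log2 difference -2.06, SE 0.407, limma adjusted p = 0.00370), where the mean was 3.96-fold lower than at day 0. Knockout A and B, the mice with low values of long transcripts, had the lowest Elovl6. The call held without any 1 mouse, and knockout C alone gave -1.02, which was not called (limma adjusted p = 0.161). At day 21 and at the late days the differences were -0.25 and -0.59 (limma adjusted p = 0.798 and 0.367).

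Elovl6 itself, with 5951 bases in its longest annotated transcript, is just under the 6000 bases of that index. The longest transcripts of Fasn, Acaca and Acacb have 9587, 9513 and 8788 bases, and each of these genes was lower in knockout C, whose index lies within the range of the other groups, than in A and B. Knockout C alone against day 0 gave log2 differences of -1.47 for Acly, -1.17 for Acaca and -2.39 for Acacb, which were called (limma adjusted p = 0.0243, 0.0454 and 0.0288), and -2.17 for Fasn and -2.59 for Scd1, which were not (limma adjusted p = 0.0828 and 0.118). Here the lone mouse is assumed to vary like the other groups.

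Srebf1, the regulator of the pathway, did not pass the threshold in any comparison. It stood at 63.8, 30.3 and 51.4 FPKM at day 0, 91.8, 26.3 and 24.0 at day 21, 48.5, 30.2 and 25.9 at day 45, 30.4 and 41.8 at days 100 and 200 and 36.8, 32.9 and 14.1 in the knockout. The groups overlapped throughout, with log2 differences of -0.25 (SE 0.497) at day 21, -0.37 (SE 0.556) at the late days and -0.82 (SE 0.497) in the knockout, and limma adjusted p of 0.846, 0.659 and 0.207. Without day 21 A the day 21 difference of Srebf1 was -0.86, still not called.

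Dgat2 and Me1 gave no call against day 0. Dgat2 stood at 325, 248 and 314 FPKM at day 0, 419, 335 and 271 at day 21, 275, 246 and 249 at day 45, 212 and 250 at the late days and 421, 347 and 233 in the knockout. Its log2 difference was positive at day 21 (0.19, SE 0.228) and in the knockout (0.14, SE 0.228) and negative at the late days (-0.35, SE 0.255), and these differences were within the spread between mice. Me1 stood at 34.9, 37.7 and 20.9 FPKM at day 0, 34.0, 33.1 and 36.1 at day 21, 27.6, 19.3 and 42.8 at day 45, 18.2 and 22.6 at the late days and 13.0, 16.5 and 24.8 in the knockout. Its knockout difference of -0.75 (SE 0.299) missed the threshold (limma adjusted p = 0.0673) and passed it without day 0 C (0.0373) or knockout C (0.0124). It also passed without the 4 livers with Y-linked transcripts (-0.84, limma adjusted p = 0.0187). Pnpla3, at 0.122 to 1.77 FPKM in all livers, was too low to be tested. It ranged from 0.176 to 0.385 at day 45 and from 0.130 to 0.347 in the knockout, within reach of day 0 B (0.224), and the lowest liver was day 21 C (0.122).

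**Figure D3:**
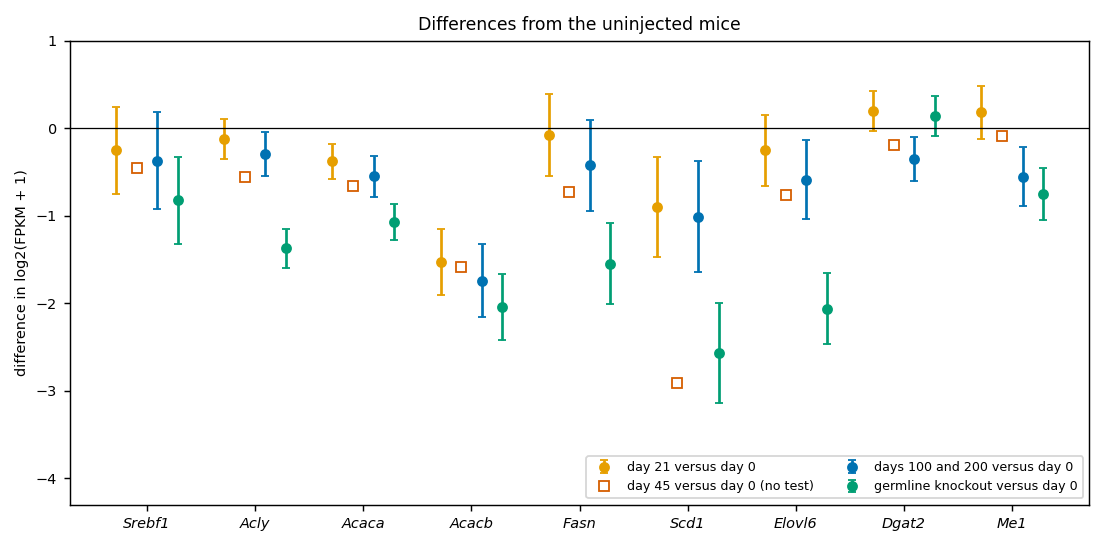
Differences from day 0 in log2(FPKM + 1) for the 9 tested genes, as limma estimates with bars of 1 SE (day 45, open squares, is drawn without error or test). The knockout differences of Acly, Acaca, Acacb, Fasn, Scd1 and Elovl6 lie between -2.57 and -1.07, while Dgat2 lies between -0.35 and 0.19 in every comparison.

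Counted together, 1 of the 9 tested genes fell at day 21 (Acacb), beside 1.42% of all 11354 genes. At the late days 1 of 9 fell (Acacb), beside 3.21% of all genes. In the knockout 6 of 9 fell (Acly, Acaca, Acacb, Fasn, Scd1 and Elovl6), beside 14.5% of all genes. These comparisons use the same day 0 mice as the contrast that chose the set. The counts, and the medians below, are therefore not independent of that choice. None of the 9 rose by limma at day 21, at the late days or in the knockout, where 6.2%, 28.4% and 19.3% of all genes rose at an adjusted p below 0.05. At an unadjusted p below 0.05 the count of the 9 that rose was 0 as well, beside 15.2%, 36.1% and 25.3% of all genes. The median log2 difference of the 9 genes was -0.25 at day 21, -0.55 at the late days and -1.37 in the knockout, beside 0.06, 0.31 and 0.02 for all tested genes. At day 45 the median of the 9 was -0.66, beside 0.20 for all genes. All 3 day 45 mice lay below all 3 day 0 mice for 6 of the 9 genes, as for 9.37% of all genes, but the set was chosen on that contrast and nothing is read from the count. No gene of the set lay above day 0 in every mouse of any group.

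A comparison with day 21 takes its differences from other mice than the day 0 and day 45 mice that chose Scd1, but its errors come from the model of all groups, which pools the spread of those mice too. It was added after the values had been seen. A fit of the 2 groups alone, which leaves them out, called 0 of the 9 genes for the knockout and 1 for the late days. In the model of all groups, the knockout was lower than day 21 for 5 of 9 genes, beside 10.9% of all genes. The log2 differences were -1.25 for Acly (SE 0.226, limma adjusted p = 0.00566), -1.81 for Elovl6 (SE 0.407, 0.0160), -0.69 for Acaca (SE 0.205, 0.0387), -1.47 for Fasn (SE 0.468, 0.0457) and -0.93 for Me1 (SE 0.299, 0.0462). Scd1, at -1.67 (SE 0.571), missed the threshold (limma adjusted p = 0.0541) and passed it without the 4 livers with Y-linked transcripts (-1.96, limma adjusted p = 0.0106), and Acacb differed by -0.51 (limma adjusted p = 0.299). Acly alone kept its call when any 1 mouse was left out, and without day 21 A it was the only gene called. Days 100 and 200 against day 21 gave 0 calls among the 9 by limma, beside 0.625% of all genes lower, and 1 gene was lower at an unadjusted p below 0.05 (Me1, log2 difference -0.73), as were 2.15% of all genes.

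Day 21 A calls for its own description. Of the 14 livers it had the highest level of 5 genes of the set, Srebf1, Acly, Fasn, Elovl6 and Pnpla3. Insig1 and Thrsp, genes of the wider list below that respond to feeding, were also highest there, at 336 and 607 FPKM. The small RNA library of the same name held a miR-122 share between those of the other day 21 libraries, but the labels do not say that both libraries are from 1 mouse. The part of feeding was not tested.

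Within groups 7 of the 10 genes varied together in part, and Scd1, Elovl6 and Me1 had no pair with r over 0.5. After the group means of log2(FPKM + 1) were taken off, the deviations of the 12 livers of the groups of 3 gave 45 pairs of genes with a median Pearson r of 0.38, and 20 pairs were over 0.5. Srebf1 and Fasn gave the value 0.95, Acaca and Acacb 0.90, and Srebf1 and Dgat2 0.89. The median r with the other 9 genes was 0.13 for Scd1, 0.32 for Elovl6 and -0.21 for Me1, and between 0.51 and 0.81 for each of the other 7. The lowest pair was Me1 and Dgat2 at -0.51. These livers share the scaling of their libraries, and the values are a description. The median over all pairs rests on day 21 A, without which it was 0.07, and it was 0.65 without knockout C.

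**Figure D4:**
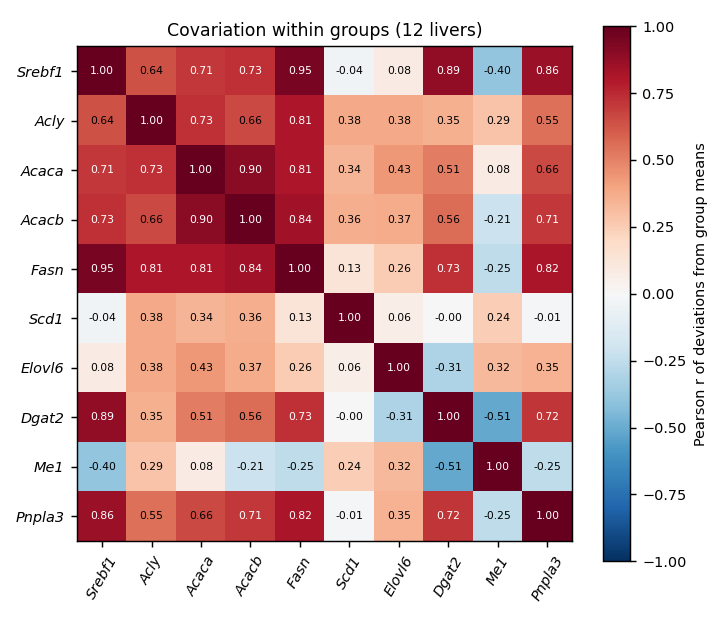
Pearson r between the genes over 12 livers, after the mean of each group of 3 was taken off log2(FPKM + 1). Srebf1 and Fasn give 0.95, and no pair with Scd1, Elovl6 or Me1 exceeds 0.5.

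Over all 14 livers, group differences included, the tested genes whose levels followed Scd1 most closely were Ik (Pearson r = 0.86), Aspg (0.85), Bdh2 (0.84), Cadps2 (0.82) and Cmtm8 (0.82). Aspg, for example, stood at 62.0 to 66.0 FPKM at day 0, 32.6 to 37.6 at day 21, 20.8 to 31.7 at day 45, 21.4 and 37.0 at days 100 and 200 and 18.6 to 24.5 in the knockout. All 5 genes were found by scanning the whole table for this likeness.

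A wider list of 55 other genes of the pathway was examined, of which 50 were tested. At day 21, 2 of them rose and 1 fell, beside 6.2% and 1.42% of all genes, which is close to the background. The enzyme Agpat1, which adds the second acyl chain in triglyceride and phospholipid synthesis, rose by 1.93 (limma adjusted p = 0.00292). Acss2, which makes acetyl-CoA from acetate, fell by 1.07 (limma adjusted p = 0.0397), and the malic enzyme gene Me2 rose by 0.90 (limma adjusted p = 0.0130), all on the log2 scale. Agpat1 stood at 5.64, 3.91 and 4.41 FPKM at day 0 and between 17.3 and 50.0 in all other livers.

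At day 45, 10 of the 50 rose and 3 fell, beside 23.7% and 2.99% of all genes. The largest rises were Agpat1 (log2 difference 2.67), the desaturase family member Fads3 (1.99) and Scd2 (1.69). The falls were Acss2 (-1.42), Elovl5, an elongase of polyunsaturated fatty acids (-0.95), and Mlxipl (-0.93), which encodes the glucose-responsive factor ChREBP. Mlxipl stood at 61.2, 61.3 and 53.7 FPKM at day 0 and at 27.9, 29.9 and 33.5 at day 45, with no overlap. With each library centred on its median, the day 45 split was 8 higher to 7 lower.

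At days 100 and 200, 11 of the 50 rose and 5 fell, beside 28.4% and 3.21% of all genes, so the share that rose was below the background. Scd2 (3.35), Fads3 (2.99) and Agpat1 (2.53) rose most, and Acss2 (-1.59), Elovl5 (-1.53) and Acsl1 (-1.49), an acyl-CoA synthetase, fell most. Centred libraries gave 6 higher and 10 lower. The count of 16 calls was 9 without the day 100 mouse and 12 without the day 200 mouse.

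In the knockout 10 of the 50 rose and 11 fell, beside 19.3% and 14.5% of all genes, so the share that rose was near the background. Agpat1 (2.83), Fads3 (2.08) and Scd2 (1.25) rose most, and Acss2 (-2.05), Idh1 (-1.68), a source of NADPH, and Mid1ip1 (-1.36), which helps acetyl-CoA carboxylase to polymerise, fell most. Acss2 stood at 199, 149 and 176 FPKM at day 0 and at 39.4, 41.8 and 42.6 in the knockout. Idh1 stood at 319, 282 and 280 FPKM at day 0 and at 59.5, 74.4 and 167 in the knockout, so knockout A and B, the libraries with low long transcripts, were the lowest. By role, with the 10 genes of the set not counted, 3 of 4 acyl-CoA synthetases fell and none rose in the knockout. Of 4 tested desaturases 2 rose and none fell, while Scd1, a desaturase of the set, was called lower. Within the knockout the synthetases were lowest in A and B as well. Acsl1 (110, 136 and 255 FPKM in knockout A, B and C, against 249 to 411 at day 0) and Acsl3 (5.003, 5.39 and 10.3, against 9.18 to 21.0) overlapped with day 0 in knockout C, and Acsl5 did not. The 7 elongation genes, Elovl6 not among them, were mixed, with 2 higher and 3 lower, and of 10 tested glycerolipid synthesis genes 3 rose and 1 fell. Of 15 tested regulators 2 fell in the knockout (Mlxipl and Mid1ip1) and none rose, a share of falls near the 14.5% of all genes. The median log2 difference of the 50 genes was -0.09 at day 21, -0.11 at day 45, 0.01 at the late days and 0.03 in the knockout. The count of 21 calls fell to 12 without knockout A and rose to 32 without knockout C, and was 10 in a fit of the 2 groups alone.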

How the data were processed

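RNA-seq libraries of 14 livers and 11 small RNA libraries of the floxed groups were used. Poly-A RNA was sequenced from both fragment ends, placed on mm9 with TopHat, and the authors deposited FPKM from Cufflinks 2.2.1, scaled to the upper quartile, with ribosomal, snoRNA and mitochondrial sequence removed. Models for counts do not suit this unit and none was used. The deposited microRNA values, made by the authors with Bowtie 0.12.7, are reads scaled to a common total with 1 added, and were treated as a score. They gave the miR-122 share only, after each column's smallest value was taken off.

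The 22308 rows were summed into 21888 symbols. limma 3.58.1 in R 4.3.3 (lmFit, contrasts, eBayes with trend) took log2(FPKM + 1) as input. The 11354 genes that averaged 1 FPKM or more entered a single model with 5 groups, days 100 and 200 being joined. Fold changes on this scale understate those of low genes. p-values were adjusted by Benjamini-Hochberg over all 11354 genes, with a threshold of 0.05. The fit was tested on simulated data. Locus starts were moved to count from 1. Motifs were searched in the 250 bases before each RefSeq start. Plots were made with Python 3.11.15 and matplotlib 3.10.9.

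The genes, the wider list and the marker lists were chosen with earlier results of these data known. Named genes were the 10 of the set in every comparison, of the wider list the 3 largest rises and falls past the threshold, the 5 genes most correlated with Scd1, and Scd2. Other genes were named after their values were seen. Alternatives were another pseudocount (0.1), no filter, centred libraries, a fit of 2 groups, a replicate block, each mouse left out, and the highest row of a symbol. Choices on Y-linked transcripts, on day 0 A and on knockout C, the comparisons with day 21, and the alternatives for the day 45 count and the covariation were added after seeing the data. Small RNA libraries of other times and of development were left out.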

Additional observations from a re-analysis of the deposited data

Results flagged for a closer look

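The difference of the knockout from day 0 was larger than that of day 21 from day 0 for 5 genes, by limma's test of the difference itself. The values, knockout minus day 21 on the log2 scale, were -1.25 for Acly, -0.69 for Acaca, -1.47 for Fasn, -1.81 for Elovl6 and -0.93 for Me1. The largest limma adjusted p among them was 0.0462. Without day 21 A, Acly was the only 1 of these to stay past the threshold. With knockout C as the only knockout library 0 of the 9 genes were called. A fit of the 2 groups alone also called 0 of the 9.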

How the results depend on the processing

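Alternatives left the direction of every called difference of the 9 tested genes in place, and 0 results were reversed. The fit without the filter gave 0 calls at day 21 and 2 against day 21 in the knockout. A fit of the 2 groups alone gave 0 of the 9 genes at day 21, 3 at the late days, 1 (late) and 0 (knockout) against day 21, and 6 (day 21) and 10 (knockout) genes of the wider list. Centred libraries gave 2 of the 9 genes at the late days. The replicate block (letters A, B and C as a factor) gave 2 calls for the knockout against day 21 and changed no other call count of the 9 genes. The letters mark no shared litter or day in the labels, and the deviations of same-letter mice had an r over 0.1 in 8 of 18 pairs (r from -0.45 to 0.50), among them all 3 pairs of days 21 and 45. Day 0 A as the only control gave 0 calls among the 9 genes in each comparison with day 0, and 0, 5, 8 and 4 genes of the wider list at day 21, at day 45, at the late days and in the knockout. Without the 4 livers with Y-linked transcripts there were 0 calls at day 21, 1 for the late days against day 21, and 33 genes of the wider list in the knockout. With a term for Y-linked genes, 1 was called for the late days against day 21. Knockout C alone gave 3 of the 9 genes and 6 of the wider list, and 0 against day 21. Leaving out 1 mouse gave 0 to 2 calls at day 21, 0 to 1 at the late days, 5 to 7 in the knockout, 1 to 5 for the knockout against day 21, and 1 to 3, 9 to 15 and 12 to 32 genes of the wider list at day 21, at the late days and in the knockout. The median covariation of 0.38 ranged from 0.069 (without day 21 A) to 0.65 (without knockout C). Among single values of the 9 genes with a test, 461 of 531 stayed on their side of the threshold, 59 lost a call and 11 gained a call. Most of the 531 belong to differences that were not called to begin with. The share that stayed is therefore not the share of calls kept. FPKM give no exact depth, so counting error could not be set beside the spread between mice.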
